A study of Mus musculus with 965 samples.

Results

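The comparison described here set 51 cells of the 3BKO clone 3B126 at day 8 of embryoid body (EB) differentiation against 68 cells of WT plate C344 at the same day, 119 of the 965 cells of the series. Members were chosen by the plate name at the start of each column of the deposited count table, C340 for 3B126 and C344 for WT, and by no measured value. 3B126 is one of the independent Dnmt3b-/- (3BKO) clones of the E14 line of mouse embryonic stem cells (ESCs), and WT is E14 without the deletion. Sources used here do not say which part of Dnmt3b was removed. Both plates carry the label of batch 2. EBs, the aggregates that ESCs form after LIF withdrawal, were pooled for each clone and day, dissociated, and sorted as live single cells into the wells of 1 plate, so that each side of the comparison is 1 clone, 1 pool of EBs and 1 plate. Cells of a plate are not replicates of a genotype. No test between genotypes was possible, no p-value is given, and the intervals on shares and levels cover counting error only. Those on levels count reads, PCR copies included, and so are too narrow for RNA molecules. The titles of 4 of the 51 cells of C340 end in 07NPM, which the sources used here do not explain. A second WT plate of day 8, C343 with 21 cells, is named only where its value bears on a result.

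DNMT3B is one of the de novo DNA methyltransferases, which set methyl groups on unmethylated CpGs as the epiblast leaves the naive state. In EBs, pluripotent cells give rise to neural ectoderm, to mesoderm with its vessel and blood progenitors, and to endoderm, while some cells keep ESC transcripts. Genes of the germ line are a known class that promoter methylation keeps silent in somatic cells. The comparison asks how the loss of DNMT3B bears on which of these cell types day 8 EBs contain.

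Plate C340 held 14372826 reads and plate C344 held 11792458. A cell of C340 had 57609 to 871915 reads (median 233829), and a cell of C344 had 51817 to 477964 (median 152478). The medians of detected genes were 5638 on C340 and 5745 on C344, and those of the mitochondrial share were 18.99% and 17.3%. No 2 cells had identical counts. Levels are given as CPM, counts per 1e6 reads of the plate or of the class of cells named. A cell was counted as holding a gene from 3 reads, where stated after each cell had been thinned to 50000 reads. Counts of cells without that statement use all reads, and the higher median depth of C340 can raise them there.

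The label of WT plate C344 was examined before the comparison, because it is in doubt. Dnmt3b (chromosome 2, 153649450 to 153687730, plus strand, GRCm38), the targeted gene, was at 4.24 CPM on C340 (95% Poisson interval 3.25 to 5.45) and at 3.22 CPM on C344 (2.28 to 4.42). The intervals overlap, and the gene was found in 5 of 51 and 6 of 68 cells. It was at 17.8 and 37.3 CPM on the 3B126 plates of days 3 and 6, against 238.9 and 69.7 CPM on the WT plates of those days. At day 6 it was found in 46.6% of 3B126 cells and 50.7% of WT cells. It thus set the labels clearly apart at day 3, less so at day 6 and not at day 8. The pluripotent cells of day 8, described below, did not help, since Dnmt3b was found in 0 of 8 of them on C340 and in 1 of 24 on C344. Dnmt3a, the other de novo enzyme, was at 24.4 CPM on C340 and 23.7 CPM on C344.

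No gene met limits of 20 CPM or more on both WT plates of days 3 and 6 and under 2 CPM on both 3B126 plates, or the reverse. With limits set after the values were seen, 2 genes were found. These limits were 4 CPM or more on every plate of one genotype at days 3 and 6 and under 0.5 CPM on every plate of the other, over 2 WT plates and, with 3B77, the other 3BKO clone, 4 3BKO plates. AU018091 (chromosome 7, 3154658 to 3169203) was at 23.7 CPM on C340 and 15.2 CPM on C344. It was at 17.99 and 21.99 CPM on the 3B126 plates of days 3 and 6, at 6.83 and 15.99 CPM on those of 3B77, and at 0.0713 and 0.490 CPM on the WT plates. Eif2s3y, a Y-linked translation factor gene, had 0 reads on C340 and 0 reads on C344. It also had 0 reads on the 4 3BKO plates of days 3 and 6, against 4.74 and 67.5 CPM on the WT plates. For both genes, C344 thus lay with the 3BKO plates and apart from the WT plates. The limits did not use the plates of the Dnmt3a-/- clones 3A2 and 3A38. AU018091 was at 424 and 32.2 CPM on 3A2 at days 3 and 6. On 3A38 it was at 6.96, 0 and 56.5 CPM at days 3, 6 and 8. Eif2s3y was at 87.3 and 86.0 CPM on 3A2 and at 2.13, 4.84 and 0.135 CPM on 3A38. Reads of AU018091 were thus not confined to 3BKO plates.

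The other plates of day 8 add values to this. Eif2s3y was at 92.8 CPM on plate C378, labelled 3B77 day 8, and at 17.3 CPM on WT plate C343, and AU018091 had 0 reads on both. The list of 4 Y-linked genes had 0 reads on C340 and C344, 1279 on C378 and 522 on C343. It had 282 and 1821 reads on the WT plates of days 3 and 6. At day 8 the cells with AU018091 were 5 neural and 5 pluripotent cells of C340 and 15 pluripotent cells of C344, in the classes described below, while C343 and C378 had 0 reads and 1 read of the pluripotency gene Dppa5a. The WT plates of days 3 and 6 did hold Dppa5a, at 306.3 and 81.4 CPM. Etv2, the factor that starts vessel and blood development, lay the other way. It was at 2.85 CPM on C340 and 16.8 CPM on C344, against 0.161 and 0.533 CPM on the 3B126 plates and 10.2 and 11.8 CPM on the WT plates of days 3 and 6. On WT plate C343, however, Etv2 was at 0.727 CPM, under C340, so that at day 8 its level did not follow the labels. It had 0 reads on C378. Which clone C344 holds cannot be settled from these values, and each difference below is between the plates labelled 3B126 and WT. If C344 held 3BKO cells, the differences would lie between plates of 3BKO cells and not between 3BKO and WT. Whether the labels of C344 and C378 were exchanged was not tested.

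**Figure D1:**
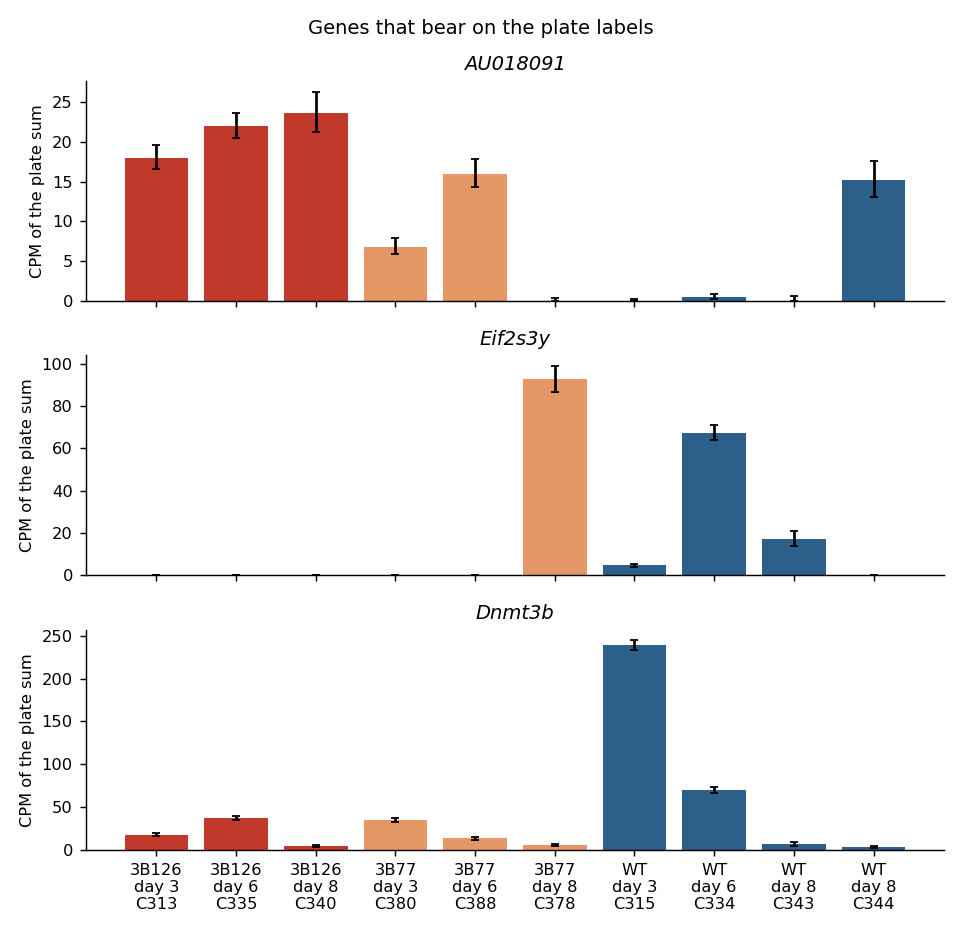
CPM of AU018091, Eif2s3y and Dnmt3b (y axes, linear, each with its own scale) in the summed reads of each plate of 3B126, 3B77 and WT at days 3, 6 and 8 (x axis). Bars are plate sums and error bars 95% Poisson intervals of the reads. C344 has 15.2 CPM of AU018091 and 0 reads of Eif2s3y, and Dnmt3b is under 7 CPM on every plate of day 8 shown.

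The cells of both plates were clustered together into 3 classes, and each class held cells of both plates. The largest was named neural progenitor-like, with Crabp1, a retinoic acid binding protein, Fabp7, a fatty acid binding protein of radial glia, and the transcription factors Zic1 and Pou3f2 among its 10 leading genes, beside the neuronal genes Nefm and Tubb3. A class led by Dppa5a was named pluripotent epiblast-like, since each of its cells held 3 or more of 10 pluripotency markers, although only 1 of its 10 leading genes was on that marker list. Every cell of that class also held Zfp42, a marker of naive cells, so that the name does not mean they had left the naive state. The remaining class was led by Asb4, Amot, Cyp26a1, Tal1, Dkk1, Pdgfra, Foxc2, Flt1, Eomes and Mixl1. These are genes of primitive streak, mesoderm and vessel or blood progenitors, but 1 was an endothelial and 1 a mesenchymal marker on the lists used, too few for a name, and it is called the Mixl1 and Eomes cluster.

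Neural progenitor-like cells were 31 of 51 on C340, 60.8% (95% exact binomial interval 46.1 to 74.2%), against 23 of 68 on C344, 33.8% (22.8 to 46.3%). Pluripotent epiblast-like cells were 8 of 51 on C340, 15.7% (7.02 to 28.6%), against 24 of 68 on C344, 35.3% (24.1 to 47.8%). The Mixl1 and Eomes cluster held 12 of 51 cells of C340, 23.5% (12.8 to 37.5%), and 21 of 68 of C344, 30.9% (20.2 to 43.3%). The plate labelled 3B126 was thus richer in neural cells and poorer in pluripotent cells, with intervals that overlap in part for both classes. The share of the Mixl1 and Eomes cluster differed by 7.35 percentage points, with intervals that overlap widely. Since the clusters were formed from these same cells, the shares describe the plates and test nothing. The median cell had 248755, 193593 and 198784 reads in these classes on C340, in the order given, and 147458, 155486 and 168653 on C344.

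**Figure D2:**
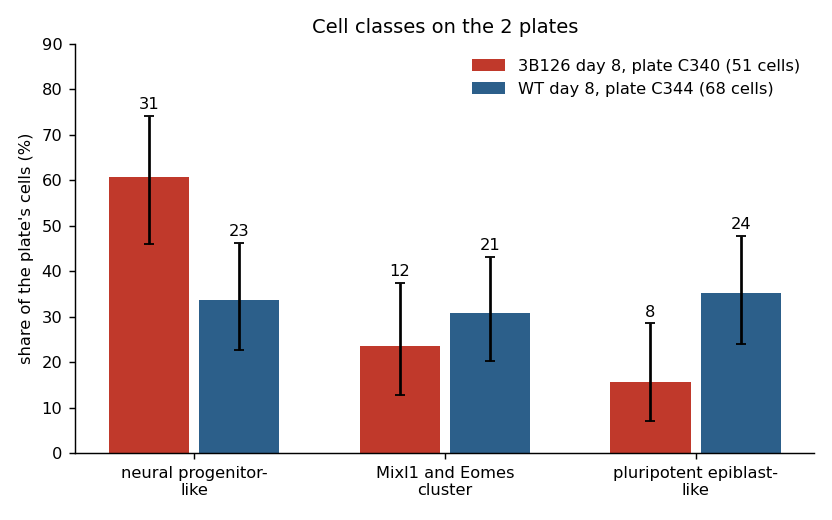
Share of the cells of each plate (y axis, percent) in each of the 3 classes (x axis), with 3B126 plate C340 left of WT plate C344. Error bars are 95% exact binomial intervals for counting error only, and the number above each bar is its count of cells. The neural bars stand at 60.8% and 33.8% and the pluripotent bars at 15.7% and 35.3%.

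Marker counts that did not use the clusters gave a like order for neural cells and a smaller gap for pluripotent ones. They are no independent check, since Crabp1, Fabp7, Zic1 and Pou3f2 of the neural list also lead the neural class in these same cells. After thinning, 35 of 51 cells of C340 held 3 or more of 14 neural progenitor markers (68.6%, interval 54.1 to 80.9%), against 24 of 68 of C344 (35.3%, 24.1 to 47.8%). For 10 pluripotency markers the counts were 13 of 51 (25.5%, 14.3 to 39.6%) and 24 of 68 (35.3%, 24.1 to 47.8%). For 16 endothelial markers they were 1 of 51 (1.96%, 0.0496 to 10.4%) and 9 of 68 (13.2%, 6.23 to 23.6%). The sets differ in length, so that shares compare only between plates.

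Some cells of C340 held markers of both lists. There, 6 of 51 cells carried 3 or more neural progenitor markers together with 3 or more pluripotency markers (11.8%, 4.44 to 23.9%), against 0 of 68 on C344, which by the limit of 3 counts allows a share of up to 4.41%. The neural list holds Sox2, which pluripotent cells share. It also holds Crabp1, found after thinning in 45 of 51 cells of C340 and 34 of 68 of C344. Both can count toward the 3 in cells that are not neural, and their part in this count was not tested. Of the 6 cells, 4 lay in the neural class and 2 in the pluripotent class, and none was titled 07NPM. They held 57609 to 621091 reads (median 299932) and a median of 6279.5 genes, against 73270 to 871915 reads (median 231736) and 5638 genes in the other 45 cells of C340. No doublet caller was run on these wells, and whether wells with more than 1 cell gave these profiles was not tested.

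Crabp1 was found in more cells on C340 but not at a higher plate level. Found after thinning in 45 of 51 cells of C340 (88.2%, 76.1 to 95.6%), it was found in 34 of 68 of C344 (50%, 37.6 to 62.4%). In the neural class its level ran from a median of 7241 CPM per cell to a highest of 75194 CPM on C340, against 5271 and 111844 CPM on C344. It was also present at a median of 306 CPM in the Mixl1 and Eomes cluster and of 138 CPM in the pluripotent class on C340, against 83.8 and 1.42 CPM on C344. Its share of cells therefore does not count neural cells.

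Fabp7 kept to the neural class more closely, with 30 of 51 cells of C340 after thinning (58.8%, 44.2 to 72.4%), against 19 of 68 of C344 (27.9%, 17.7 to 40.1%). Outside that class it was found after thinning in 2 of 12 cells of the Mixl1 and Eomes cluster and 0 of 8 pluripotent cells of C340, and in 0 of 21 and 0 of 24 of C344. Within the neural class its median was 562 CPM per cell on C340 and 377 CPM on C344. More cells thus held Fabp7 on C340, at levels per cell that overlapped.

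Sox2, a factor shared by neural progenitors and pluripotent cells, was higher on C340 in both of these classes. In neural cells it was at 146 CPM on C340, with 20 of 31 cells holding it, against 25.2 CPM and 6 of 23 cells on C344. In pluripotent cells it was at 329 CPM, in 7 of 8 cells, against 70.1 CPM, in 20 of 24 cells. On plate sums the log2 ratio was 1.95, with 137.5 CPM on C340 and 31.9 CPM on C344, which is under the 4-fold limit used below. The cells overlapped, with highest values of 559 and 168 CPM in neural cells.

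Neurons made part of the neural class on both plates. Among 17 neuronal markers, a neural cell held 1 to 15 on C340 (median 2) and 0 to 14 on C344 (median 3) after thinning. Tubb3, a tubulin of neurons, was at 476 CPM in the class on C340 and 1233 CPM on C344, with per-cell medians of 5.85 and 153 CPM and highest values of 16092 and 13753 CPM. A single cell held 59.7% of the Tubb3 reads of C340, and without the top cell of each plate the levels were 134 CPM on C340 and 295 CPM on C344. The Notch target Hes5 was found in 2 of 31 neural cells of C340 and 10 of 23 of C344, at 8.81 and 38.9 CPM.

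Pluripotency genes crossed into the neural class on C340 only in part of its cells. Zfp42, a marker of naive cells, was found in 10 of 31 neural cells of C340, at 76.95 CPM in the class, and in 0 of 23 of C344, at 0.515 CPM. Dppa5a was found in 9 of 31 and 1 of 23, at 112 and 1.80 CPM, and Tdgf1, a Nodal coreceptor, in 8 of 31 and 0 of 23. In the pluripotent class itself every cell of both plates held Zfp42 and Dppa5a. Dppa5a was at 1561 CPM in that class on C340 and 2768 CPM on C344, Zfp42 at 669 and 329 CPM, and Nanog at 286 and 99.4 CPM, so that the members of this programme did not lie on one side.

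**Figure D3:**
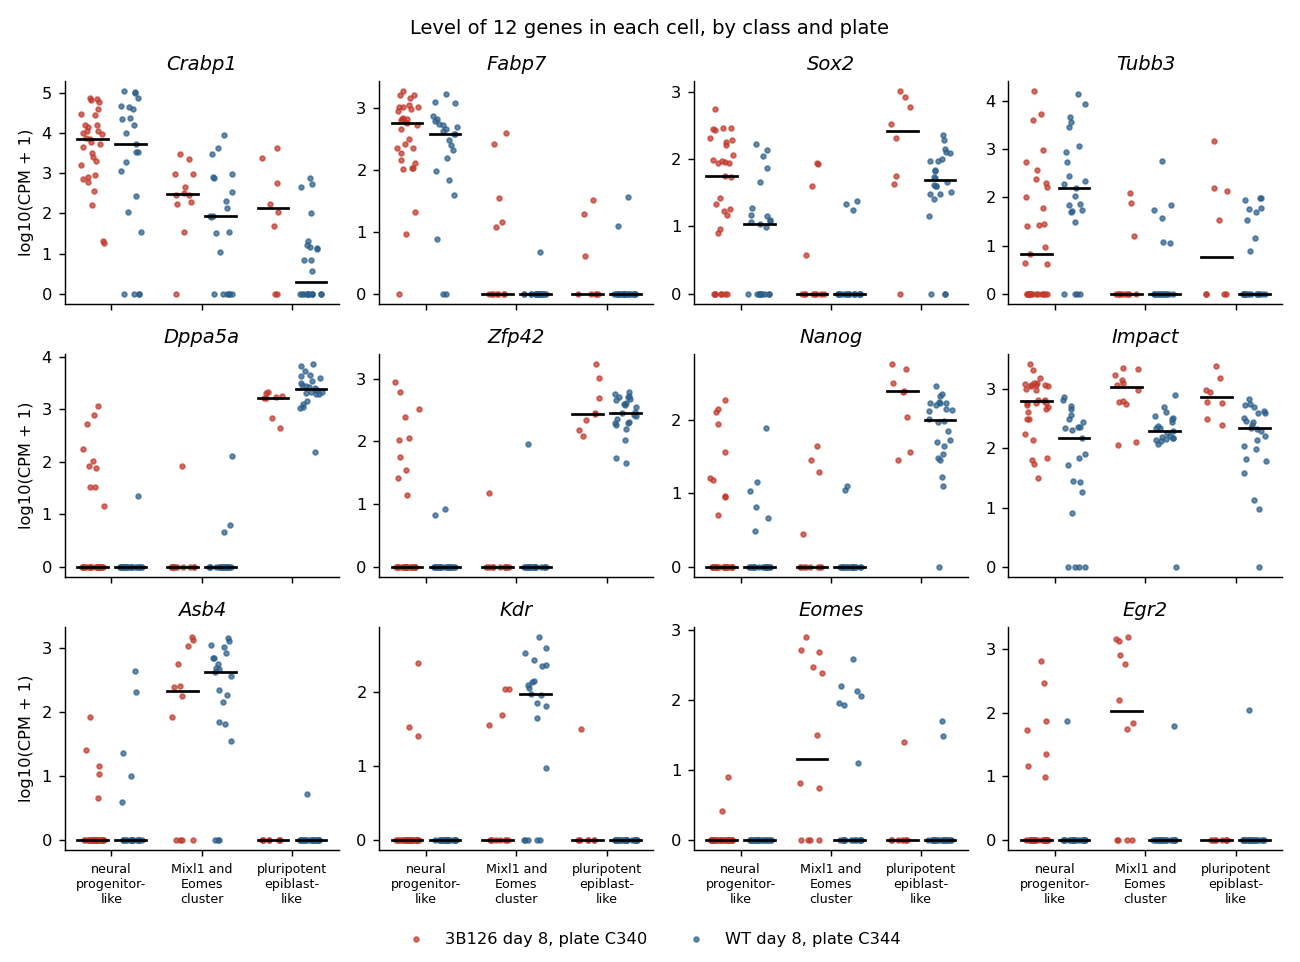
Level of 12 genes in each cell (y axes, log10 of CPM + 1), by class (x axis), with 3B126 plate C340 in red left of WT plate C344 in blue. Points are cells and black lines are medians. Dppa5a and Zfp42 are at 0 in most neural cells, with points above 0 in the neural class mainly on C340, and Impact lies higher on C340 in each class, with overlap.

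The Mixl1 and Eomes cluster differed between the plates in which of its genes its cells held. On C344 it was rich in vessel genes. Kdr, the VEGF receptor of vessel and blood progenitors, was found in 4 of 12 cells of C340 and 16 of 21 of C344, at 32.1 and 137 CPM. Tal1, a factor of blood progenitors, was found in 1 of 12 and 12 of 21 cells, at 25.9 and 157 CPM, and Flt1, another VEGF receptor, in 4 of 12 and 12 of 21, at 20.3 and 106 CPM. On C340 streak and segmentation genes stood higher. Eomes, a factor of the primitive streak, was found in 6 of 12 and 7 of 21 cells, at 247 and 43.1 CPM. The streak gene T was at 61.04 CPM on C340 and 8.18 CPM on C344, in 7 of 12 and 4 of 21 cells.

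Egr2, a zinc finger factor of hindbrain segments, was found in 8 of 12 cells of this cluster on C340 and in 1 of 21 on C344, at 609 and 4.33 CPM. A single cell held 56.6% of its reads in the cluster on C340. Of 8 tested immediate early and heat shock genes 5 were past 4-fold higher in this cluster and 1 was lower, with a median of 2.41 and a summed level of 450 CPM on C340 and 202 CPM on C344. Their part in the level of Egr2 was not tested. Epha4, an ephrin receptor, was at 581 and 12.03 CPM, with 70.5% of its C340 reads in 1 cell, and Dll3, a Notch inhibitor of somite precursors, was at 99.9 and 0.241 CPM, in 6 of 12 and 0 of 21 cells. Lower on C340 were Reln, a secreted glycoprotein, at 0.308 and 107 CPM, in 0 of 12 and 9 of 21 cells, and Prc1, which binds the spindle midzone, with 0 reads on C340 and 70.03 CPM on C344, in 10 of 21 cells.

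Within this cluster 356 of 8026 genes were 4-fold or more higher on C340 (4.44%) and 499 were as much lower (6.22%), and the median ratio was −0.30. Of 15 tested endothelial genes 5 were past 4-fold lower, with a median of −1.73 and a summed level of 252 CPM on C340 and 873 CPM on C344. Of 6 tested primitive streak and paraxial mesoderm genes 4 were past 4-fold higher, with a median of 2.32. Of 18 G2 and mitosis genes 7 were lower, with a median of −1.39. Since these genes also helped to form the cluster, the values describe its make-up and are no test of it. The cluster rests on 12 cells of C340. Of these, 4 held 3 or more neural progenitor markers, against 2 of 21 on C344, and neuron differentiation genes summed to 613 CPM on C340 and 181 CPM on C344. The part of these markers in the differences was not tested.

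On plate sums the 2 plates were close for most genes. Ratios are log2 of CPM + 5 on C340 over CPM + 5 on C344, for the 12087 genes with 50 or more reads over both plates. The pseudocount of 5 CPM understates the difference of low genes. The median ratio was −0.04, 81.0% of genes lay within 2-fold, 156 genes were 4-fold or more higher on C340 (1.29%) and 72 were 4-fold or more lower (0.596%). One cell held over 50% of the higher plate's reads for 89 of the 156 genes and for 27 of the 72. With each cell weighted equally as well, 73 and 36 genes stayed past 4-fold. With 3 or more reads in at least 40% of the cells of the higher plate in addition, 15 genes were higher on C340 and 4 were lower.

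These criteria leave out genes found in few cells, such as markers of rare cell types. Among the genes that met them the highest ratio belonged to Mex3c, an RNA-binding ubiquitin ligase, which was at 53.3 CPM on C340 and 2.37 CPM on C344 (log2 ratio 2.98), in 41.2% and 5.88% of cells. Wasf1, an actin regulator, was at 297 and 33.3 CPM (2.98) in 52.9% and 29.4% of cells, and Tspyl1, a relative of nucleosome assembly proteins, at 414 and 59.3 CPM (2.704) in 82.4% and 48.5%. The top cell of each gene held 45.7% of the Tspyl1 reads and 43.3% of the Epha4 reads of C340. Without the 5 deepest cells of each plate, the ratios of Tspyl1, 2610002M06Rik, Epha4, Slc5a3 and Tsc22d2 were 1.37, 1.02, 1.76, 1.99 and 1.89, under 4-fold. Epha4 was at 214 and 31.5 CPM (2.58), and the gap junction gene Gja1 at 159 and 26.1 CPM (2.40). Tmem47, 2610002M06Rik, Gm49336, Slc5a3, Tsc22d2, Rps6ka3 and Arxes2 completed the 12 named, with ratios of 2.19 to 2.71. On WT plate C343, Wasf1 was at 281 CPM and Tspyl1 at 547 CPM, near C340, while Tmem47 at 6.55 CPM and Gja1 at 7.09 CPM lay under C344.

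The 4 genes lower on C340 were mostly noncoding. Gm26917, annotated as a long noncoding RNA (chromosome 17, 39843013 to 39846341), was at 907 CPM on C340 and 5583 CPM on C344 (−2.62). It took 0.00397 to 0.802% of the reads of a cell on C340 (median 0.0521%) and 0.0215 to 2.94% on C344 (median 0.463%), so that cells of the plates overlapped. Gm24201, annotated as a small nucleolar RNA, was at 4.73 and 49.2 CPM (−2.48), and Anp32a, a phosphatase inhibitor, at 35.1 and 245 CPM (−2.64). Mir6236, a microRNA locus on chromosome 9, was at 74.6 and 446 CPM (−2.50). Its mature sequence is shown, from RefSeq on GRCm38.p6, with the seed (bases 2 to 8) in capitals, since it is the one microRNA locus among the 4 lower genes.
mmu-miR-6236: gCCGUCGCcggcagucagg
The library protocol primes on polyadenylated RNA, and the reads of this locus are not a measure of the mature microRNA.

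Other plates held some of these levels too. Gm26917, Mir6236 and Anp32a were at 7849, 569 and 239 CPM on plate C388 (3B77 day 6), close to C344, and at 239, 21.04 and 29.4 CPM on C335 (3B126 day 6). On the WT plate of day 6, C334, they were at 1200.0, 158 and 38.8 CPM. The mitochondrial gene mt-Nd1 was at 20163 CPM on C340 and 5620 CPM on C344 (log2 ratio 1.84), with 17917, 4850 and 16759 CPM on C335, C388 and C334.

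**Figure D4:**
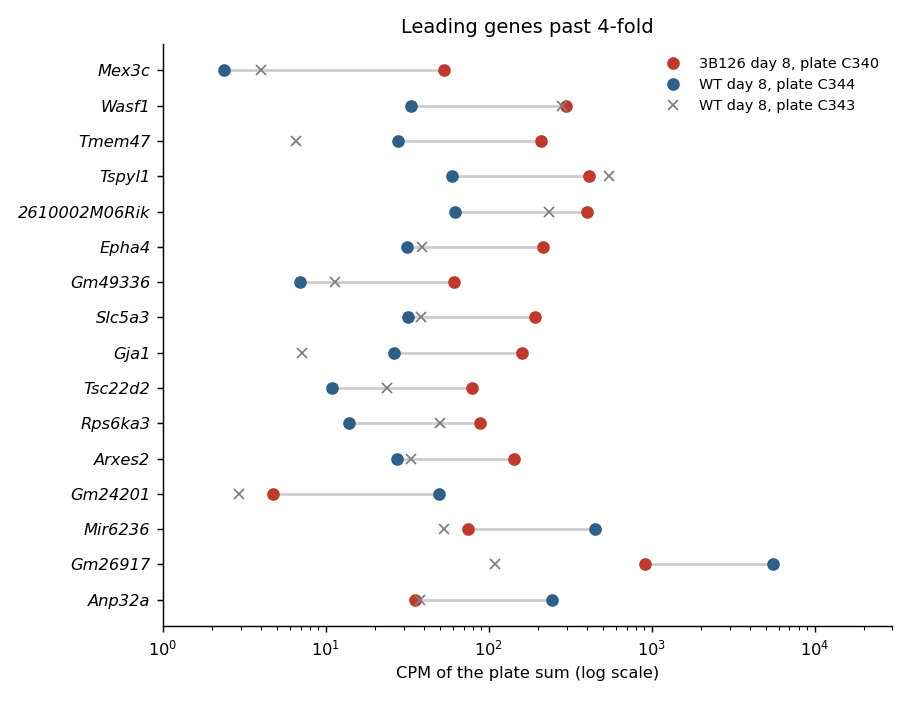
CPM in plate sums (x axis, log scale) of the 12 leading genes higher and the 4 lower on 3B126 plate C340 (red) than on WT plate C344 (blue), with WT plate C343 as grey crosses. Lines join C340 and C344. Crosses for Wasf1 and Tspyl1 lie near the red points, and those for Mex3c and Gm49336 lie near the blue.

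Base composition moved with the ratios. In 5 bins of rising GC content of the longest transcript, of 2396 or 2397 genes each (99.1% of those tested), the median log2 ratio was 0.25, 0.04, −0.08, −0.17 and −0.16. The share of genes 4-fold or more higher on C340 was 3.17% in the bin of lowest GC content and 0.209% in that of the highest. For genes as much lower it was 1.21% and 0.459%, so that genes past 4-fold in either direction were most frequent at the lowest GC content. The 15 genes higher on C340 by all 3 criteria had a median GC content of 43.6%, against 48.7% over all genes tested. With the GC trend removed, a setting added after the data were seen, 124 genes were higher and 86 lower. Of 33 single ratios followed through the settings, 29 kept their side of 4-fold with the trend removed. The exceptions were Rdh10 (1.99), Impact (1.87), Bmp4 (−1.99) and Pcdhb14 (1.86), and Mex3c was at 2.91.

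Gene lists for cell types and pathways were read by their counts past 4-fold, to be set against the 1.29% and 0.596% of all genes, and by their median beside the −0.04 of all genes. Of 20 neural progenitor genes, 19 were tested, none was past 4-fold and the median was 0.58. Sox2 and Sox1 (both 1.95), Zic1 (1.82), Nr2f1 (1.63) and Pax6 (1.33) stood highest. Cdh2, a neural cadherin, stood lowest at −0.98. As this is bulk over a plate, more cells of a type and more RNA per cell cannot be told apart in it.

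Regional genes of the neural tube were few. Among hindbrain and spinal cord genes, 6 of 16 were tested and Egr2 was past 4-fold, at 158 CPM on C340 and 4.24 CPM on C344 (4.15), found in 14 of 51 and 3 of 68 cells. Most of this lay outside the neural class, with 1974 of its 2278 reads on C340 in the Mixl1 and Eomes cluster. Without the cell that held 49.03% of its reads it was at 85.7 CPM on C340. Hoxa2 and Hoxb1, the anterior Hox genes of the same region, were at 26.3 and 7.65 CPM on C340 and 28.6 and 11.4 CPM on C344. They were the only 2 of 36 Hox genes with enough reads for a ratio. Otx2, of forebrain and midbrain, was at 46.9 and 36.6 CPM, and En2, of the midbrain-hindbrain boundary, at 40.6 and 8.65 CPM (1.74).

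Retinoic acid genes were among the most abundant of all lists. Crabp1 was at 7664 CPM on C340 and 8104 CPM on C344 (−0.08), and Crabp2, its paralogue, at 405 and 215 CPM (0.90). Rdh10, which makes retinaldehyde, the precursor of retinoic acid, was past 4-fold at 123 and 25.7 CPM (2.06). It was found in 19 of 51 and 11 of 68 cells. Cyp26a1, which degrades retinoic acid, was at 26.9 and 56.6 CPM (−0.95), so that the 9 tested genes of 17 did not share a side, and their median was 0.27.

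Neuron differentiation genes had a median of −0.14 over 27 tested of 32, with 3 past 4-fold higher and 1 lower on C340. The higher ones included Nefl, a neurofilament (120.5 and 18.7 CPM, 2.40), and Isl1, a factor of motor neurons and heart progenitors (39.9 and 5.17 CPM, 2.14). Isl1 was found in 4 of 51 and 5 of 68 cells, and its top cell on each plate lay in the Mixl1 and Eomes cluster. That cell held 71.9% of its C340 reads, and without the top cells Isl1 was at 11.9 CPM on C340 and 3.07 CPM on C344. Its ratio was 1.64 with cells weighted equally. Nefl without its top cell was at 46.8 CPM on C340 and 6.99 CPM on C344. Cntn2, an axonal adhesion protein, was lower on C340, at 2.16 and 44.9 CPM (−2.80), in 3 of 51 and 6 of 68 cells.

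Among lists with 15 or more genes tested, endothelial genes had the highest share of members on one side. Of 15 tested of 23, 14 had negative ratios, with a median of −1.29, and 1 was 4-fold or more lower. That one was Flt1, at 4.87 CPM on C340 and 37.7 CPM on C344 (−2.11), in 5 of 51 and 13 of 68 cells. Its ratio was under 4-fold with cells weighted equally (−1.75), with thinned cells (−1.58), without the 5 deepest cells of each plate (−1.70) and against C343 (−1.98). Kdr was at 13.6 and 48.3 CPM (−1.52), Cdh5, the cadherin of vessel junctions, at 0.905 and 16.9 CPM (−1.89), and the angiopoietin receptor Tek at 0.835 and 13.9 CPM (−1.70). The summed level of the list was 88.7 CPM on C340 and 325 CPM on C344, with 311 CPM on WT plate C343.

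Blood genes rested on few cells. Of 20, 5 were tested, and 3 were 4-fold or more lower. Tal1 was at 6.33 CPM on C340 and 55.4 CPM on C344 (−2.41), in 2 of 51 and 12 of 68 cells. One cell held 92.3% of its C340 reads. The embryonic globins Hbb-bh1 and Hba-x had 0 reads on C340, against 6996 and 762 reads on C344, of which 99.9% and 100% lay in 1 and the same cell. Without that cell, Hbb-bh1 was at 0.342 CPM on C344. The list's median was −2.41. It was −5.57 when the genes at 0 on C340, all globins read mainly from that cell, took instead a plain CPM ratio with 3 reads on C340 and no pseudocount, so that the change of formula is part of the move. Spink1, the 1 of 4 endoderm genes tested that was past 4-fold, likewise had 0 reads on C340 and 1864 reads on C344, all in another single cell. C343 had 53577 CPM of blood genes, so that the size of this difference depended on the WT plate chosen, while C340 was lower than either. The ratio of Tal1 was −4.58 against C343.

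Other mesoderm lists stood on either side. Heart and muscle genes had a median of −0.92 (7 tested of 16) and mesenchyme genes −0.55 (14 tested of 24), while primitive streak and paraxial mesoderm genes had 0.55 (8 tested of 16), and none of these was past 4-fold. Foxc2, of paraxial mesoderm, was at 78.97 CPM on C340 and 17.7 CPM on C344 (1.89), T at 38.6 and 7.72 CPM (1.78) and Eomes at 56.1 and 16.03 CPM (1.54). The top cells of these genes held 71.1% of the Foxc2 reads, 60.5% of the T reads and 53.6% of the Eomes reads of C340. Most T reads of C340, those of its top cell among them, lay outside the Mixl1 and Eomes cluster. Mixl1, a streak factor, was at 16.2 CPM on C340 and 24.1 CPM on C344 (−0.46), in 3 of 51 and 8 of 68 cells, and Mesp1, of early mesoderm, was at 17.6 and 18.4 CPM (−0.05). Bmp4, a ligand that drives ventral mesoderm, was 4-fold or more lower, at 5.50 and 40.8 CPM (−2.13), in 6 of 51 and 17 of 68 cells. It was the 1 of 13 tested Bmp and Id genes past the limit.

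**Figure D5:**
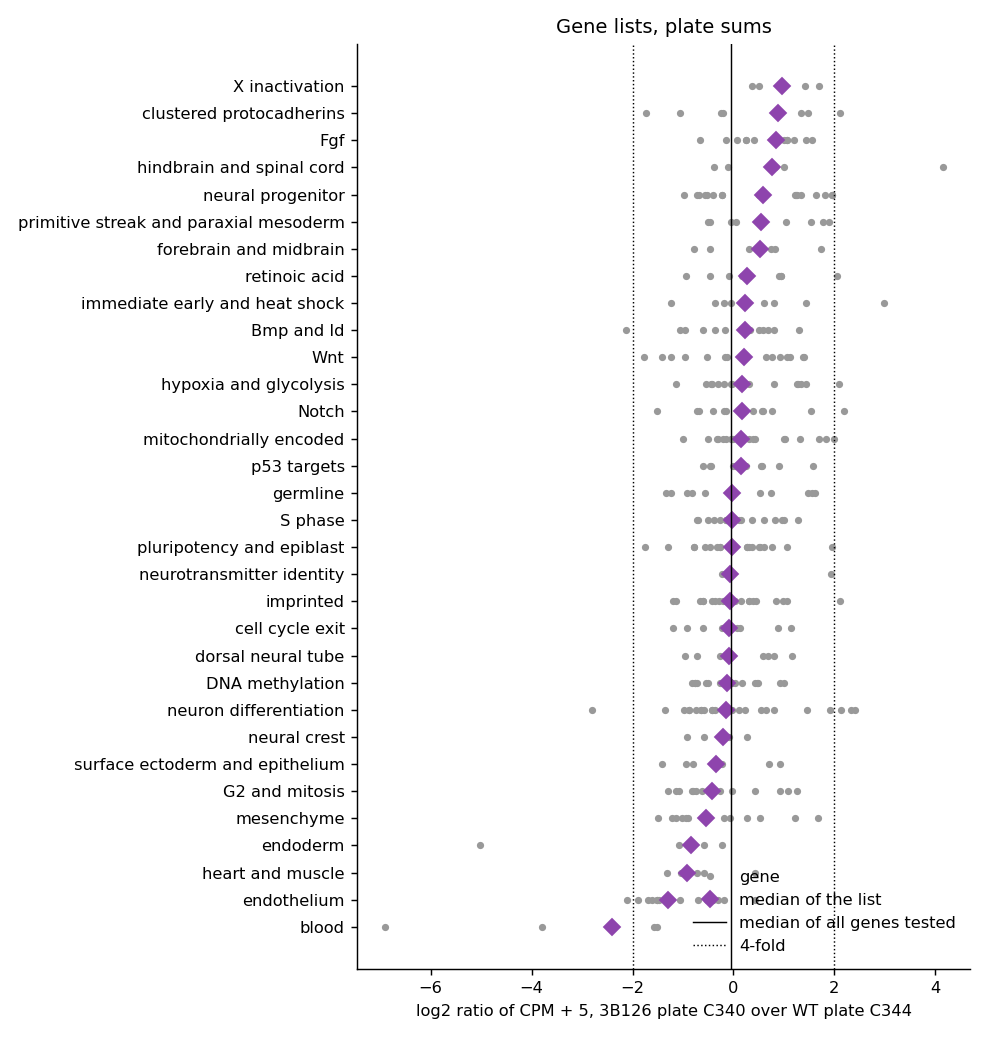
Log2 ratio of CPM + 5 (x axis), 3B126 plate C340 over WT plate C344, for each tested gene (grey points) of the lists with 3 or more genes tested (y axis), with the median of each list as a diamond. The solid line is the median of all genes tested and dotted lines mark 4-fold. Blood, endothelial and heart genes have the lowest medians, at −2.41, −1.29 and −0.92.

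Signalling lists added few genes past 4-fold. Fgf pathway genes had a median of 0.84 over 14 tested of 18, with none past 4-fold and 12 positive, led by the feedback inhibitor Spry2 (102 CPM on C340 and 31.5 CPM on C344, 1.55) and the receptor Fgfr2 (1.45). In the Notch list, Dll3 was past 4-fold at 40.98 and 5.09 CPM (2.19), while its relative Dll1 was at 5.08 and 11.6 CPM (−0.72). Wnt genes had a median of 0.22 and none past 4-fold. Adm, a hypoxia-induced peptide hormone, was the 1 of 17 hypoxia and glycolysis genes past 4-fold (41.2 and 5.77 CPM, 2.10), and Hspa1b the 1 of 9 immediate early and heat shock genes (38.8 and 0.509 CPM, 2.99). A single cell held 70.2% of the Hspa1b reads of C340.

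Lists of pluripotency and of DNA methylation had no gene past 4-fold. The 21 tested pluripotency and epiblast genes had a median of −0.04, from −1.75 for Dppa5a (260 CPM on C340 and 884 CPM on C344) to 1.95 for Sox2. The 18 DNA methylation genes had a median of −0.12, from −0.82 for Zfp57, which guards imprints, to 1.00 for Hells, a chromatin remodeller that aids methylation. Dnmt1, the maintenance enzyme, was at 101 and 123 CPM (−0.27), Uhrf1, its partner, at 90.1 and 63.4 CPM (0.47), and Tet1, which oxidises methylcytosine, at 156 and 115 CPM (0.43).

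Among 20 tested imprinted genes the median was −0.07, and Impact, a paternally expressed regulator of translation control, was past 4-fold. It was at 1012 CPM on C340 and 232 CPM on C344 (2.10). Per cell it ran from 30.7 CPM through a median of 648 to 2624 CPM on C340, against 0, 199 and 809 CPM on C344. It was found in 51 of 51 and 60 of 68 cells, and its top cell held 12.5% of the reads on C340 and 8.06% on C344. It was higher on C340 in each class, at 912 and 241 CPM in neural cells, 1369 and 233 CPM in the Mixl1 and Eomes cluster, and 886 and 220 CPM in pluripotent cells. Across other plates it was at 3763 and 1091 CPM on the 3B126 plates of days 3 and 6, at 1623 and 275 CPM on the WT plates of those days, and at 736 CPM on C343. The other 3BKO clone, 3B77, was at 634, 538 and 483 CPM at days 3, 6 and 8, so that the 3BKO clones did not lie on one side of WT. It was the broadest of the list members past 4-fold, and C343 lay nearer to C340 than to C344.

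Germline genes had a median of −0.02 over 10 tested of 21 and none past 4-fold. Dazl, an RNA-binding protein of germ cells whose promoter is rich in CpGs, was at 27.9 CPM on C340 and 6.19 CPM on C344 (1.56), found in 11 of 51 and 6 of 68 cells. On C344 all 6 were pluripotent cells, while on C340 5 were pluripotent and 6 neural. After thinning, 6 of 51 cells of C340 and 4 of 68 of C344 held Dazl. Its promoter is shown because promoter methylation is the known silencer of such genes. It covers 250 bases before to 50 after the start in RefSeq, chr17:50293571-50293870 on GRCm38.p6, minus strand, with each CG in capitals.
Dazl promoter: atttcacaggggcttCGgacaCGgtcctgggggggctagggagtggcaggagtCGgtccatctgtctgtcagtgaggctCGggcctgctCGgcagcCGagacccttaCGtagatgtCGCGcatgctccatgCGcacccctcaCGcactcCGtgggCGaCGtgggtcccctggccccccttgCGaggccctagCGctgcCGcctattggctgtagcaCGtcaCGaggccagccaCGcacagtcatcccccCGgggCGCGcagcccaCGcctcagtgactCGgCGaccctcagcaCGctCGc
It holds 28 CG in 300 bases. Of 32851 such windows over all genes, 14.2% hold as many or more, with a median of 7. No methylation was measured in these cells, and the level of Dazl was not compared with it.

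Cell cycle lists had no gene past 4-fold. G2 and mitosis genes had a median of −0.42 over 18 tested, with 14 negative, and with Top2a at 404 CPM on C340 and 899 CPM on C344 (−1.14) and Ccnb2, a mitotic cyclin, at 464 and 217 CPM (1.08). S phase genes had a median of −0.03, with Pcna, the polymerase clamp, at 1116 and 454 CPM (1.29). Clustered protocadherins, often silenced by methylation, had 9 of 52 tested, a median of 0.89 and 1 past 4-fold, Pcdhb14, whose 299 reads on C340 all lay in 1 cell.

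Within the neural class, 427 of 10176 genes were 4-fold or more higher on C340 (4.20%) and 324 lower (3.18%). Of the 18 tested pluripotency genes 7 were higher there, with a median of 1.85 beside −0.02 over all genes of the class, as were 3 of 5 germline genes. Sox2, a factor that neural progenitors share, is among the 7 pluripotency genes. The leading genes by the naming rule were Ifitm1, an interferon-induced membrane protein of early epiblast, at 111 and 0.772 CPM in 14 of 31 and 0 of 23 cells, and Eea1, an endosome tether, at 269 and 15.4 CPM. Lower on C340 were Tppp3, a tubulin-polymerising protein (24.7 and 322 CPM), Rnd2, a GTPase of migrating neurons (18.4 and 234 CPM), and Kif1a, an axonal motor (6.47 and 110 CPM), found in 7, 6 and 6 of 31 cells against 10, 12 and 11 of 23. A single cell held 74.9% of the Tppp3 reads of the class on C344.

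Within the pluripotent class, 458 of 7098 genes were 4-fold or more higher on C340 (6.45%) and 4.06% were as much lower, with only 8 cells on C340. Zfp606 was at 468 and 7.46 CPM, in 5 of 8 and 2 of 24 cells, and the homeobox gene Meis2 at 423 and 12.5 CPM, with 72.1% of the C340 reads in 1 cell. Smc1b, a cohesin subunit of meiosis, had 0 reads in the class on C340 and was at 118 CPM on C344, in 10 of 24 cells. Znrf3, a brake on Wnt receptors, was at 4.10 and 107 CPM, in 2 of 8 and 15 of 24 cells, and the mitochondrial protein gene Nipsnap1 at 6.44 and 105 CPM, in 2 of 8 and 21 of 24. Nipsnap1 was the most evenly spread of these, with 10.2% of its C344 reads in its top cell.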

How the data were processed

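Libraries were made by a modified Smart-seq2 method from polyadenylated RNA, with no molecular identifiers, so PCR copies count as reads. The table deposited by the authors holds unnormalized read counts (36849 genes, 965 cells). The submitters' processing notes name FastQC (0.11.2), Trim Galore (0.5.0), STAR (2.7.1a), featureCounts (1.6.1) and mm10. Per the study's methods the authors left out multi-mapped reads and kept cells with 50000 or more assigned reads, 2000 or more genes and at most 50% mitochondrial reads. Sources used here do not give the strand setting, so overlapping antisense genes cannot be told apart. Reads were summed per plate (Python 3.11.15). Cells were clustered with Seurat 5.3.0 in R 4.3.3 (2000 variable genes, 8 principal components, resolution 0.8). Scaling factors came from edgeR 4.0.16 and DESeq2 1.42.0, with no test. Coordinates and base composition came from GENCODE on GRCm38. The ratio was tested on plate sums simulated with counting error only. As these had no spread between cells, the test does not cover genes read mainly from a single cell. No doublet caller was run, and the cells titled 07NPM were kept. Alternatives covered scaling, filters, pseudocount, fold, thinning, cells, clustering settings and the WT plate; 3 were added after the data were seen (GC trend, class shares without the cells titled 07NPM, and wider limits of the label check). The text names the 12 leading genes in each direction past 4-fold by plate sum and by equal weight and found in 40% of cells of the higher plate, list members past 4-fold with up to 3 abundant others, and 6 genes each way within classes. Others were chosen after their values were seen. One list member past 4-fold is not reported here. Members and lists were chosen with earlier results of these data known. Intervals are exact, at 95%.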

Additional observations from a re-analysis of the deposited data

How the results depend on the processing

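No paired analysis was possible because each group is 1 plate and replicate numbers name only cells. The counts past 4-fold, 156 higher and 72 lower, became 618 and 525 with a pseudocount of 1 CPM (54.1% of calls higher, against 68.4%), 1262 and 1031 at 2-fold, and 1057 and 737 with WT plate C343 in place of C344. With mitochondrial reads left out, 238 genes were higher, and with both WT plates summed, 250 were lower (35.7% of calls higher). Against C343 the median ratio of all genes was 0.48. Within the neural class, 210 genes were lower with each cell weighted equally, against 324. The label check found 0 genes as set, 3 at 10 or more against under 1 CPM, and 2 at 4 or more against under 0.5 CPM over both 3BKO clones. The other 71 values for counts and class shares stayed within 1.5 times or within the interval. Against C343, ratios turned round for Tspyl1 (−0.40), Gm26917 (3.00), Mir6236 (0.46), Gm24201 (0.30) and Cntn2 (0.52), and 12 more of 33 named ratios fell under 4-fold, among them Wasf1 (0.08), Anp32a (−0.10), Rdh10 (0.31), Rps6ka3 (0.78) and Impact (0.46). Without the 5 deepest cells of each plate Pcdhb14 was at −0.29 and 10 more fell under 4-fold, as did 9 with thinned cells, 7 with cells weighted equally and 7 with both WT plates summed, and without the cells titled 07NPM the protocadherin median was −0.17. The causes were not tested. With 51 and 68 cells, class shares carry intervals of over 20 percentage points, and smaller gaps were not detectable at this depth. The gap of pluripotent cells, at −19.6 percentage points (C340 minus C344), is under that size.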

Other observations

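Genes of the X chromosome and of X inactivation differed in part. Xist, the RNA that coats the inactive X, was at 158 CPM on C340 and 55.8 CPM on C344 (log2 ratio 1.42), in 16 of 51 and 19 of 68 cells, and its regulator Ftx was at 31.4 and 6.19 CPM (1.70). The top cell of each gene held 56.1% of the Xist reads and 56.4% of the Ftx reads of C340, and with cells weighted equally the ratio of Xist was 0.91. All 4 tested genes of the X inactivation list had positive ratios, with a median of 0.96. The 420 X-linked genes tested had a median ratio of −0.03, and 16 of them were 4-fold or more higher on C340 (3.81%), against 1.29% of all genes. Chromosomes 10 and 18 followed at 2.97% and 2.64%, so that X was not alone above the share of all genes. Of the 12 leading genes higher on C340, 4 were X-linked. These genes were read after their values were seen, and no cause was tested.

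A finer clustering (resolution 1.2) set apart 4 cells of C340 and 0 of C344, and 3 of those 4 were among the 6 cells with neural and pluripotency markers.

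The 4 cells titled 07NPM fell in pairs into the neural and the pluripotent class, with 92311 to 340663 reads and 4789 to 6666 genes, within the range of the plate. G530011O06Rik, at 10.9 and 21.9 CPM on the WT plates of days 3 and 6 and at 0.129 and 0.652 CPM on the 3B126 plates, was at 6.19 CPM on C340 and 3.73 CPM on C344 and so lay on neither side.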
